A study of Homo sapiens with 6 samples.

Results

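The genes described here are 51 ligands, receptors, SMADs, antagonists and targets of the TGF-beta, BMP and activin pathways, chosen by symbol from the 23346 genes of a table of read counts per gene. All 51 were in the table. The counts came from BT549, an established mesenchymal-like breast cancer cell line of wild-type genotype, grown in RPMI medium with 10% FCS. Libraries of poly(A) RNA were made from 3 samples transfected with negative control (NC) siRNA and 3 transfected with siRNA against BNC2, which encodes the zinc finger protein basonuclin-2, at 20 nM in both groups, and RNA was taken 6 d after transfection. The methods describe the BNC2 siRNA as an equal mix of 3 siRNAs, whose separate effects cannot be told apart here, and the samples of a group as biological replicates of a single cell line.

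Ligands of this superfamily bind pairs of type I and type II receptor kinases at the cell surface. TGF-betas and activins mostly lead to phosphorylation of SMAD2 and SMAD3, BMPs and most GDFs to phosphorylation of SMAD1, SMAD5 and SMAD9, and both classes share SMAD4. Secreted antagonists such as noggin and follistatin hold ligands away from their receptors, SMAD6 and SMAD7 and the SMURF ubiquitin ligases act as brakes inside the cell, and the ID genes are well-known targets of BMP signalling. In epithelial cells, TGF-beta is well known as an inducer of epithelial-mesenchymal transition.

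The libraries held between 16093978 and 18246254 counts. BNC2 itself (chr9:16409501-16870841 in GRCh37) stood at 65.6, 51.5 and 58.6 CPM (counts scaled to library size with TMM factors) in the control (NC siRNA) libraries and at 35.5, 36.6 and 41.6 CPM in the knockdown (BNC2 siRNA) libraries. It was thus at 64.7% of the control level, with no overlap between the groups. Its log2FC, the log2 fold change of BNC2 siRNA over NC siRNA, was -0.63 with a standard error (SE) of 0.09 and an adjusted p = 8.2e-06 by edgeR's quasi-likelihood test, and this notation is kept for every gene. The mesenchymal markers VIM, FN1, CDH2, ZEB1 and SPARC were abundant in all 6 libraries and all were called, CDH2 higher (log2FC 1.36 ± 0.05 SE, adjusted p = 1.53e-12), FN1, ZEB1 and VIM higher with a log2FC of 0.39, 0.34 and 0.18, and SPARC lower (log2FC -0.52 ± 0.05 SE, adjusted p = 1.64e-07), while the epithelial markers EPCAM and ESRP1 had no count in any library and CDH1 had 1 count in 1 NC siRNA library. The other epithelial markers had too few counts for the test: ESRP2 had 8, 7 and 2 in the control libraries against 13, 23 and 17 in the knockdown libraries, CRB3 had 2, 7 and 1 against 2, 0 and 0, and GRHL2 had at most 1 in a library. Of the leukocyte markers, PTPRC had at most 7 counts in a library and CD3E had 1 count in 1 library. CD68, a lysosomal protein that is also made outside leukocytes, was abundant, at 116, 111 and 125 CPM in the control libraries and 150.1, 144 and 138 CPM in the knockdown libraries, and was called higher (log2FC 0.29 ± 0.06 SE, adjusted p = 0.00041). The part of these markers in the results was not tested.

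Of the 51 pathway genes, 39 passed the filter on low counts (over 1 CPM in 3 or more libraries) and were tested, and 12 were not. Of the 39, 34 were called at an adjusted p of at most 0.05, where the share of all 12186 genes tested that was called was 72.9%. There were 16 genes higher and 18 lower with BNC2 siRNA, beside 36.6% of all genes higher and 36.2% lower. The changes went in both directions and were often sizeable. A change of at least 2-fold was called in 15 of the 39 (7 higher and 8 lower), beside 18.1% of all genes tested. The pathway genes were chosen with earlier results of these data known, so the larger share is no independent finding. The libraries of the 2 groups did not overlap in 35 of the 39, and in 74.9% of all genes tested. The median log2 fold change of the 39 was -0.04 and that of all genes 0.00, and the median size of the change regardless of direction was 0.70 and 0.44. GDF5 passed the filter through the control libraries alone, so that it could be tested only as a fall, and without it 33 of 38 were called, 16 higher and 17 lower, with 14 of at least 2-fold (7 higher and 7 lower), a median log2 fold change of 0.02 and a median size of 0.66. NOG, with 2 control libraries over 1 CPM, passed the filter only with its knockdown libraries counted and is kept in all these counts. Genes that passed the filter through 1 group alone were not left out of the shares of all genes. The counts by role given below are read against the same shares of all genes. In RNA from whole cultures, fewer cells with a transcript and less transcript per cell cannot be told apart, and this holds for every value below.

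**Figure D1:**
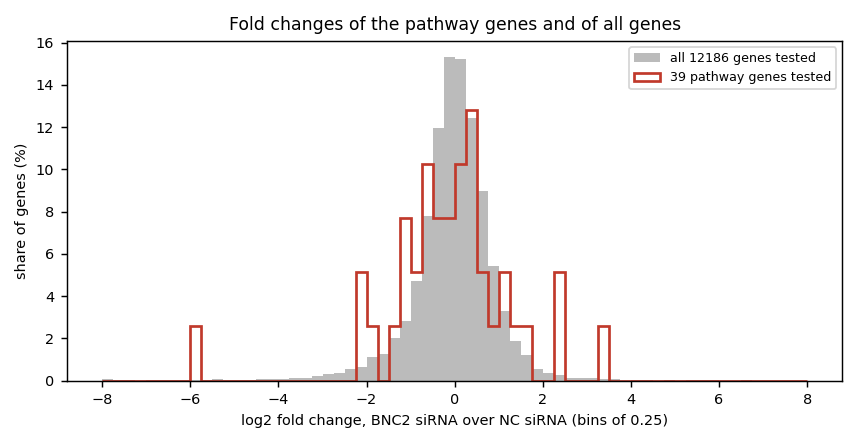
Histogram of log2 fold changes (BNC2 siRNA over NC siRNA, bins of 0.25) for the 39 pathway genes tested (red outline) and all 12186 genes tested (grey), as a share of genes in percent. The pathway genes, which were chosen with earlier results of these data known, centre near 0, as all genes do. A larger share of them lies beyond a log2 fold change of 1 in either direction. The value farthest to the left is GDF5, a fitted value that rests on 0 or 1 counts in each BNC2 siRNA library.

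**Figure D2:**
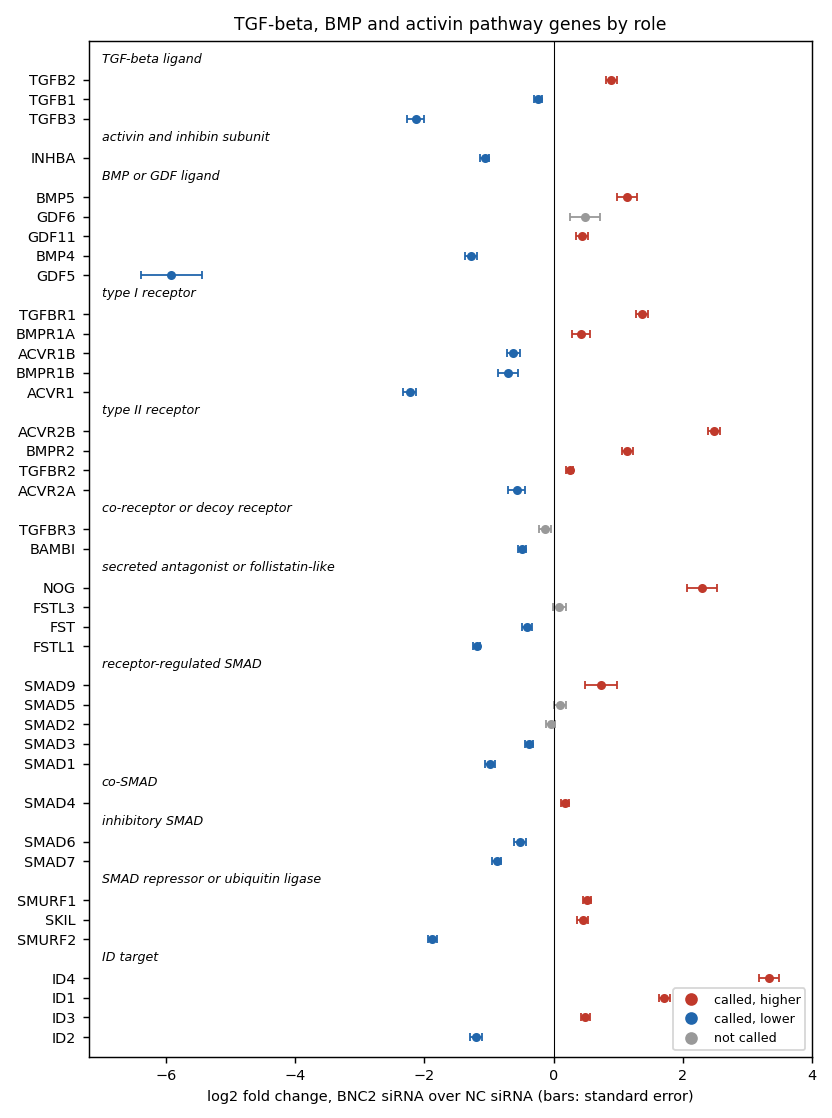
Log2 fold change of each tested pathway gene by role, with bars of 1 standard error. Red marks the 16 genes called higher, blue the 18 called lower and grey the 5 not called, and most roles hold genes of both colours.

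The 3 TGF-beta ligands did not move together. TGFB2 (chr1:218518678-218617961) stood at 27.2, 22.2 and 26.3 CPM in the control libraries and at 46.9, 46.7 and 47.0 CPM in the knockdown libraries. TGFB3 (chr14:76424440-76449354) stood at 25.9, 19.4 and 21.6 CPM in the control libraries and at 4.71, 5.70 and 4.78 CPM in the knockdown libraries. Both were thus cleanly separated between the groups, in opposite directions. TGFB2 rose from 25.2 ± 2.68 to 46.9 ± 0.178 CPM (SD, n = 3; log2FC 0.89 ± 0.08 SE, adjusted p = 5.34e-08), and TGFB3 fell from 22.3 ± 3.30 to 5.06 ± 0.552 CPM (log2FC -2.14 ± 0.13 SE, adjusted p = 4e-10). TGFB1, the most widely expressed form, moved far less: it fell from 173, 193 and 192 CPM to 164, 155 and 153 CPM (log2FC -0.24 ± 0.06 SE, adjusted p = 0.00185). Within each library, the ratio of TGFB2 to TGFB3 counts was 1.05, 1.14 and 1.22 in the control libraries and 9.96, 8.19 and 9.84 in the knockdown libraries.

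Levels of different genes were set side by side as CPM per kb of transcript. The lengths come from another annotation than the one used for counting, so shares and orders on this scale, here and below, are approximate. On it, TGFB1 made up most of the TGF-beta transcripts in both groups. Its share of the summed level per kb was 86.0 ± 2.24% (SD, n = 3) with NC siRNA and 85.7 ± 0.540% with BNC2 siRNA. The remainder was divided differently: the share of TGFB2 was 5.55 ± 0.721% and 12.1 ± 0.362%, and that of TGFB3 was 8.40 ± 1.55% and 2.24 ± 0.274%. The summed level of the 3 ligands per kb was 77.7 ± 2.88 with NC siRNA and 66.1 ± 2.03 with BNC2 siRNA.

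INHBA, which encodes the subunit that forms activin A, was 2.09-fold lower in the mean. It stood at 196, 210.2 and 240.3 CPM in the control libraries and at 98.9, 106 and 105 CPM in the knockdown libraries, with every BNC2 siRNA library below every NC siRNA library. Its mean fell from 215 ± 22.8 to 103 ± 3.66 CPM (SD, n = 3; log2FC -1.06 ± 0.07 SE, adjusted p = 9.54e-10). The other subunit genes were near the detection limit: INHA, whose product turns an activin subunit into an inhibin, had 13, 14 and 8 counts with NC siRNA and 9, 4 and 7 with BNC2 siRNA, and INHBB had 0, 3 and 3 against 0, 0 and 2.

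Among the BMP and GDF ligands, 5 of 11 were tested, of which BMP5 and GDF11 rose, BMP4 and GDF5 fell and GDF6 was not called. BMP4, the BMP ligand with the highest level per kb in the control libraries, stood at 60.2, 66.1 and 72.8 CPM in them and at 29.7, 28.6 and 23.2 CPM in the knockdown libraries (log2FC -1.29 ± 0.09 SE, adjusted p = 2.64e-09). BMP5 moved the other way, from 4.73, 7.06 and 7.71 CPM to 12.2, 16.2 and 14.5 CPM (log2FC 1.14 ± 0.16 SE, adjusted p = 6.12e-06). For both, the groups did not overlap. On the per-kb scale the level of BMP4 was 34.4 ± 3.26 (SD, n = 3) with NC siRNA and 14.1 ± 1.78 with BNC2 siRNA, and that of BMP5 was 1.64 ± 0.394 and 3.60 ± 0.503, so BMP4 remained the higher of the pair in both groups.

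GDF5, a ligand of joint and cartilage development, was nearly lost: 55, 47 and 46 counts in the control libraries stood against 0, 1 and 1 in the knockdown libraries. With the library sizes taken into account, the summed counts of the NC siRNA libraries were 71.7 times those of the BNC2 siRNA libraries, with an exact 95% counting interval of 19.5 to 598 that covers counting error only. It passed the filter through the control libraries alone and so could be tested only as a fall, and its p is not given. GDF11 stood at 35.1, 29.9 and 31.7 CPM with NC siRNA and at 43.0, 49.5 and 38.5 CPM with BNC2 siRNA, a modest rise without overlap (log2FC 0.44 ± 0.09 SE, adjusted p = 0.000456). GDF6 stood at 1.52, 2.13 and 1.38 CPM with NC siRNA and at 2.44, 2.43 and 2.23 CPM with BNC2 siRNA. Its groups did not overlap either, but the test did not call it (log2FC 0.49, 95% interval 0.00 to 0.98, adjusted p = 0.0668). Of the remaining BMP and GDF ligands, none passed the filter, and their counts are given further on.

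The secreted antagonists also split. NOG, which encodes the BMP antagonist noggin, stood at 1.63, 1.46 and 0.843 CPM in the control libraries and at 5.76, 5.75 and 8.09 CPM in the knockdown libraries. All BNC2 siRNA libraries were well above all NC siRNA libraries. The mean rose from 1.31 ± 0.415 to 6.53 ± 1.35 CPM (SD, n = 3), with a log2FC of 2.30 ± 0.23 SE. Only 2 control libraries of NOG were over 1 CPM. It thus met the filter of 3 libraries only with its knockdown libraries counted, and its p is not given. The ratio of BMP4 counts to NOG counts was accordingly 36.9, 45.4 and 86.4 in the control libraries and 5.15, 4.97 and 2.87 in the knockdown libraries. FST, which encodes the activin antagonist follistatin, was lower, at 42.3, 43.5 and 49.6 CPM with NC siRNA and 34.5, 33.6 and 34.1 CPM with BNC2 siRNA (log2FC -0.41 ± 0.08 SE, adjusted p = 0.00017). The ratio of INHBA counts to FST counts was 4.63, 4.83 and 4.85 with NC siRNA and 2.87, 3.15 and 3.07 with BNC2 siRNA.

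FSTL1, a secreted follistatin-like glycoprotein, had the highest level per kb of the 51 genes in the control libraries (122.7 ± 3.13 CPM per kb, SD, n = 3) and the fifth highest in the knockdown libraries (53.9 ± 0.482 CPM per kb). In CPM it stood at 716, 694 and 681 with NC siRNA and at 309, 303 and 306 with BNC2 siRNA, with little spread inside either group (log2FC -1.19 ± 0.05 SE, adjusted p = 6.15e-12). FSTL3, which also binds activin, was not called (log2FC 0.09, 95% interval -0.12 to 0.30, adjusted p = 0.43). Of the membrane proteins that modulate ligand access, the decoy receptor BAMBI fell from 70.5, 74.0 and 69.7 CPM to 51.6, 50.0 and 51.3 CPM (log2FC -0.49 ± 0.06 SE, adjusted p = 2.66e-06). The co-receptor TGFBR3, or betaglycan, was not called (log2FC -0.13, 95% interval -0.32 to 0.06, adjusted p = 0.202).

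**Figure D3:**
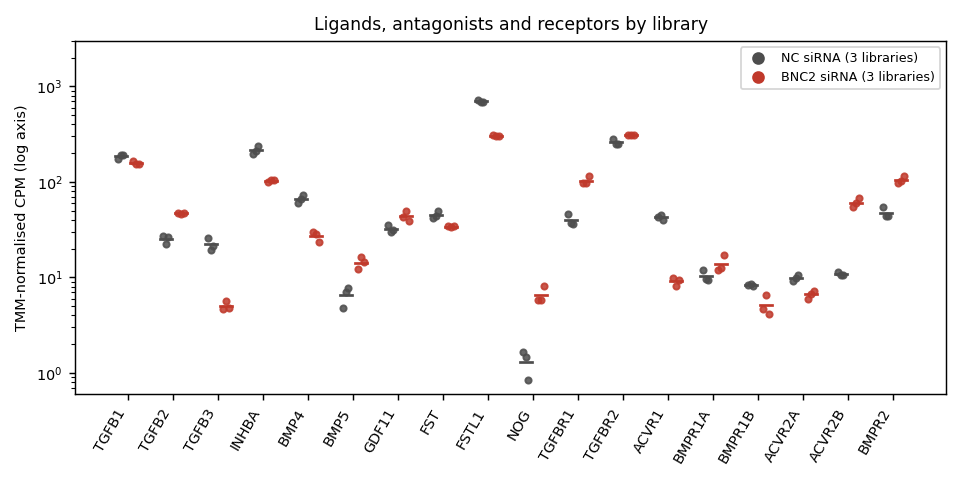
TMM-normalised CPM on a log axis for 18 ligands, antagonists and receptors, with a point for each of 3 NC siRNA libraries (grey) and 3 BNC2 siRNA libraries (red) and a line at the group mean. In each of these 18 genes the 2 groups are separate, as in 74.9% of all genes tested, with the widest gaps in TGFB3, NOG, ACVR1 and ACVR2B. The genes shown are a selection that leaves out TGFBR3 and FSTL3, whose groups overlap.

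All 9 receptor kinases that could be tested were called, 5 higher and 4 lower, where 72.9% of all genes tested were called. ACVR2B (chr3:38495381-38534633), a type II receptor for activins and several GDFs and BMPs, stood at 11.3, 10.5 and 10.6 CPM in the control libraries and at 54.0, 60.4 and 67.8 CPM in the knockdown libraries. It rose from 10.8 ± 0.407 to 60.8 ± 6.90 CPM (SD, n = 3), a ratio of means of 5.63 (log2FC 2.49 ± 0.10 SE, adjusted p = 1.21e-12). Its close relative ACVR2A fell over the same libraries, from 9.07, 9.91 and 10.6 CPM to 5.99, 6.77 and 7.13 CPM (log2FC -0.57 ± 0.13 SE, adjusted p = 0.000701). In the control libraries the counts of the pair were nearly equal, and in the knockdown libraries ACVR2B had the more. The ratio of ACVR2B to ACVR2A counts was 1.24, 1.06 and 1.00 with NC siRNA and 9.02, 8.93 and 9.51 with BNC2 siRNA, and on the per-kb scale ACVR2B made up 32.7 ± 2.48% of the pair with NC siRNA and 80.2 ± 0.537% with BNC2 siRNA.

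BMPR2, the type II receptor specific to BMPs, stood at 55.1, 43.7 and 44.2 CPM with NC siRNA and at 97.8, 103 and 115 CPM with BNC2 siRNA (log2FC 1.14 ± 0.09 SE, adjusted p = 5.13e-09). TGFBR2, the type II receptor of the TGF-betas, rose by much less, from 282, 249 and 247 CPM to 308, 308 and 309 CPM (log2FC 0.25 ± 0.06 SE, adjusted p = 0.00127). Neither gene overlapped between the groups. TGFBR1, the type I partner of TGFBR2, stood at 46.4, 37.1 and 36.5 CPM with NC siRNA and at 97.0, 97.2 and 115 CPM with BNC2 siRNA, a rise of 2.58-fold in the mean (log2FC 1.37 ± 0.09 SE, adjusted p = 1.06e-09). On the per-kb scale TGFBR2 was still the higher of the pair, at 57.2 ± 4.33 (SD, n = 3) against 6.16 ± 0.853 for TGFBR1 with NC siRNA and 68.0 ± 0.151 against 15.9 ± 1.62 with BNC2 siRNA.

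ACVR1 (chr2:158592763-158732842), a type I receptor for BMPs also known as ALK2, fell the most among these 9 receptors. It stood at 42.7, 45.3 and 39.8 CPM in the control libraries and at 9.77, 8.07 and 9.42 CPM in the knockdown libraries, a gap several times the spread inside either group (log2FC -2.23 ± 0.10 SE, adjusted p = 4.94e-12). ACVR1B, the type I receptor for activins, also fell, from 39.1, 32.9 and 34.8 CPM to 22.7, 25.8 and 20.9 CPM (log2FC -0.62 ± 0.09 SE, adjusted p = 1.67e-05). The remaining BMP type I receptors changed less and in opposite directions. BMPR1B fell from 8.28, 8.63 and 8.13 CPM to 4.65, 6.49 and 4.14 CPM (log2FC -0.70 ± 0.16 SE, adjusted p = 0.000728). BMPR1A stood at 11.9, 9.58 and 9.33 CPM with NC siRNA and at 12.0, 12.6 and 17.1 CPM with BNC2 siRNA, so that its groups nearly touched (log2FC 0.43 ± 0.14 SE, adjusted p = 0.0124). Its call was lost without NC siRNA replicate 2 (adjusted p = 0.0587), NC siRNA replicate 3 (0.0576) or BNC2 siRNA replicate 3 (0.103).

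Per kb, ACVR1 made up 80.5 ± 1.22% of the summed level of ACVR1, BMPR1A and BMPR1B with NC siRNA and 47.0 ± 4.38% with BNC2 siRNA (SD, n = 3). The share of BMPR1A was 10.1 ± 1.30% and 37.1 ± 4.96%, and that of BMPR1B 9.43 ± 0.333% and 15.9 ± 4.63%. The sum of the 3 receptors per kb was 15.9 ± 0.924 with NC siRNA and 5.81 ± 0.370 with BNC2 siRNA, while that of the activin type II receptors ACVR2A and ACVR2B was 2.81 ± 0.118 and 6.43 ± 0.694. The type I receptor transcripts for BMPs were therefore fewer, and the activin type II receptor transcripts more, in the same libraries.

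**Figure D4:**
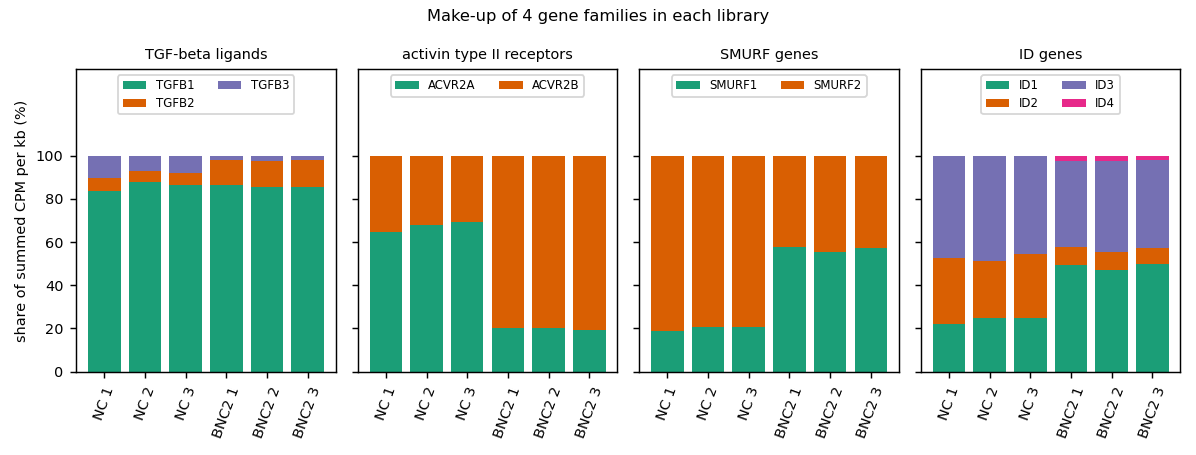
Stacked bars of the share of each gene in the summed CPM per kb of its family, in percent, for each of the 6 libraries. ACVR2B and SMURF1 go from the smaller to the larger share of their pairs, TGFB2 and TGFB3 exchange places behind a constant share of TGFB1, and ID1 takes the largest share of the ID genes in the knockdown libraries.

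Of the 8 SMAD genes, 2 were called higher, 4 lower and 2 were not called, a share near the 72.9% of all genes tested. None was called with a change of 2-fold, beside 18.1% of all genes, which for 8 genes is no result about the SMADs. SMAD1, which carries BMP signals, stood at 41.1, 37.1 and 37.6 CPM with NC siRNA and at 19.4, 19.1 and 19.9 CPM with BNC2 siRNA (log2FC -0.99 ± 0.08 SE, adjusted p = 1.08e-08). SMAD5, which carries the same signals, was not called, at 85.8, 69.5 and 65.4 CPM against 73.2, 73.7 and 89.1 CPM, with overlapping groups (log2FC 0.10, 95% interval -0.11 to 0.30, adjusted p = 0.376). On the per-kb scale SMAD1 was 54.7 ± 2.28% of the summed level of SMAD1, SMAD5 and SMAD9 with NC siRNA and 36.0 ± 1.94% with BNC2 siRNA (SD, n = 3). SMAD9, the least abundant of these, was at 1.52, 1.06 and 1.26 CPM with NC siRNA and 2.38, 2.26 and 1.78 CPM with BNC2 siRNA (log2FC 0.74 ± 0.25 SE, adjusted p = 0.0133). That value holds for the counted strand alone: 33, 40 and 32 reads in the control libraries and 7, 9 and 8 in the knockdown libraries lay on the other strand of SMAD9, and with both strands summed the log2 fold change was -0.32 (adjusted p = 0.132). Its call was also lost without NC siRNA replicate 2 (adjusted p = 0.0629) or BNC2 siRNA replicate 1 (0.0509).

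Of the SMADs that carry TGF-beta and activin signals, SMAD3 fell from 127, 117 and 119 CPM to 92.1, 96.8 and 90.3 CPM (log2FC -0.38 ± 0.06 SE, adjusted p = 2.61e-05). SMAD2 was at 65.4, 60.4 and 60.3 CPM with NC siRNA and 62.3, 58.5 and 59.6 CPM with BNC2 siRNA. It was not called, and the 95% interval of its log2 fold change, -0.18 to 0.09, lay within a narrow band around 0 (adjusted p = 0.554). SMAD4, the shared partner, was slightly higher, at 57.7, 54.2 and 56.6 CPM against 63.7, 62.6 and 64.9 CPM (log2FC 0.18 ± 0.06 SE, adjusted p = 0.0158). The call of SMAD4 was lost when libraries were scaled by total counts (adjusted p = 0.152), when replicate numbers were blocked (0.0504), and without NC siRNA replicate 2 (0.102), NC siRNA replicate 3 (0.0538) or BNC2 siRNA replicate 3 (0.0534).

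Both inhibitory SMADs were down-regulated. SMAD7, which blocks TGF-beta and BMP type I receptors and is itself induced by these signals, stood at 57.1, 54.5 and 55.9 CPM with NC siRNA and at 30.0, 31.6 and 29.2 CPM with BNC2 siRNA. Its 3 libraries in each group lay close together, and the mean fell from 55.8 ± 1.28 to 30.3 ± 1.24 CPM (SD, n = 3; log2FC -0.88 ± 0.07 SE, adjusted p = 7.81e-09). SMAD6, the inhibitor with a preference for BMP signals, fell from 22.1, 22.9 and 24.2 CPM to 16.1, 14.8 and 17.4 CPM (log2FC -0.52 ± 0.09 SE, adjusted p = 7.96e-05).

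The ubiquitin ligases SMURF1 and SMURF2, which mark SMADs and receptors for degradation, changed in opposite directions. SMURF2 (chr17:62538400-62658425) stood at 235, 197 and 199 CPM in the control libraries and at 56.1, 59.8 and 56.0 CPM in the knockdown libraries, a fall of 3.67-fold in the mean (log2FC -1.88 ± 0.07 SE, adjusted p = 1.35e-12). SMURF1 rose from 50.0, 46.4 and 47.3 CPM to 70.1, 67.9 and 67.7 CPM (log2FC 0.52 ± 0.06 SE, adjusted p = 1.66e-06). In neither did the groups overlap. The ratio of SMURF2 to SMURF1 counts was 4.71, 4.25 and 4.22 with NC siRNA and 0.801, 0.880 and 0.827 with BNC2 siRNA, and the sum of the pair per kb was 42.2 ± 3.76 and 21.3 ± 0.324 (SD, n = 3). SKIL, which encodes the SMAD repressor SnoN, rose from 46.4, 43.4 and 38.2 CPM to 54.4, 56.6 and 64.6 CPM (log2FC 0.45 ± 0.08 SE, adjusted p = 0.000127).

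**Figure D5:**
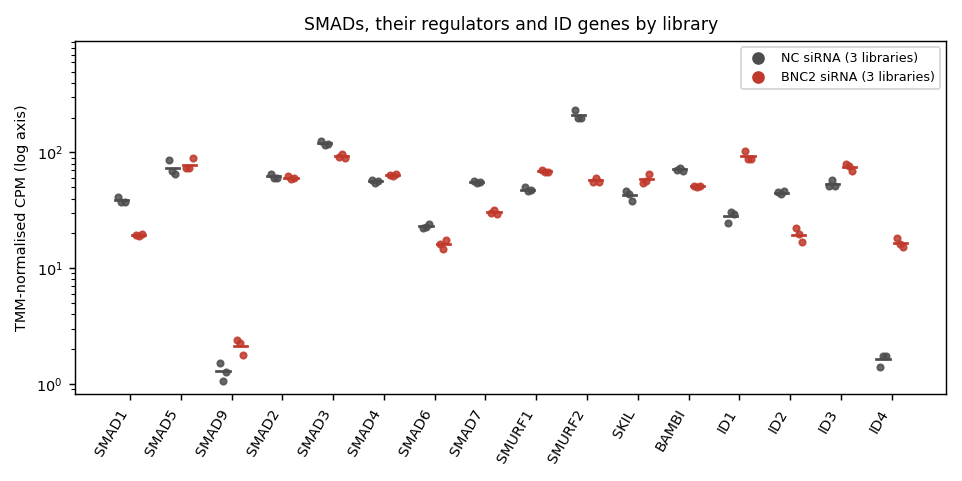
TMM-normalised CPM on a log axis for the 8 SMAD genes, SMURF1, SMURF2, SKIL, BAMBI and the 4 ID genes, with a point per library (grey, NC siRNA; red, BNC2 siRNA) and a line at the group mean. SMAD2 and SMAD5 overlap between the groups, whereas SMURF2, ID1, ID2 and ID4 are far apart, ID2 in the direction opposite to the other ID genes.

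The 4 ID genes encode helix-loop-helix proteins that lack a DNA-binding region and hold other transcription factors inactive. All were called, beside 72.9% of all genes tested, with 3 higher and ID2 lower. ID4 (chr6:19837601-19842428) stood at 1.41, 1.74 and 1.75 CPM with NC siRNA and at 18.2, 16.2 and 15.2 CPM with BNC2 siRNA, which was the largest rise among the 39 tested pathway genes, 10.1-fold in the mean (log2FC 3.34 ± 0.15 SE, adjusted p = 8.96e-12). ID1 (chr20:30193086-30194318) rose from 24.7, 30.4 and 29.3 CPM to 102, 87.0 and 88.4 CPM (log2FC 1.72 ± 0.09 SE, adjusted p = 2.78e-11). ID3 (chr1:23884417-23885992) rose by less, from 51.4, 57.5 and 51.6 CPM to 80.1, 75.9 and 69.8 CPM (log2FC 0.49 ± 0.07 SE, adjusted p = 1.04e-05). ID2 (chr2:8818975-8824591) fell from 45.3, 43.4 and 46.1 CPM to 22.0, 19.7 and 16.8 CPM (log2FC -1.20 ± 0.09 SE, adjusted p = 4.92e-09). None of the 4 overlapped between the groups.

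Per kb, the ID transcripts summed to 119.9 ± 5.34 with NC siRNA and 192.7 ± 15.4 with BNC2 siRNA (SD, n = 3). ID3 held the largest share with NC siRNA, 46.9 ± 1.55%, and ID1 with BNC2 siRNA, 48.8 ± 1.49%. The share of ID2 went from 28.9 ± 1.97% to 7.78 ± 0.522%. ID4 remained the smallest in spite of its rise, at 0.350 ± 0.0298% and 2.22 ± 0.0320%. In the order of all 51 genes by level per kb, ID1 moved from the tenth place to the first, at 94.1 ± 8.50 CPM per kb.

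Because the ID genes parted in direction, the 250 bases before the start site of each are given here from RefSeq on GRCh38.p14, 5′ to 3′ along the strand of the gene, in the order ID1 (chr20:31605039-31605288, plus strand), ID3 (chr1:23559502-23559751, minus strand), ID4 (chr6:19837120-19837369, plus strand) and ID2 (chr2:8681806-8682055, plus strand). SMAD6 (chr15:66701986-66702235, plus strand) is added as the only pathway gene whose window held the palindrome of SMAD binding. Capitals mark matches on either strand to the TATA box, written TATAAA, or to any of 3 motifs known for SMAD binding, which are the palindrome GTCTAGAC, the core of the CAGA box with the letters CAGACA, and the GC-rich element with the letters GGCGCC.
ID1: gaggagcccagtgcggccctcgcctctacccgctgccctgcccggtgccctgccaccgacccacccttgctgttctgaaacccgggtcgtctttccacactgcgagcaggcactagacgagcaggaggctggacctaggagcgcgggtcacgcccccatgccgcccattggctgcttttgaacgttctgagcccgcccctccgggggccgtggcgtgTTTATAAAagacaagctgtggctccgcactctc
ID3: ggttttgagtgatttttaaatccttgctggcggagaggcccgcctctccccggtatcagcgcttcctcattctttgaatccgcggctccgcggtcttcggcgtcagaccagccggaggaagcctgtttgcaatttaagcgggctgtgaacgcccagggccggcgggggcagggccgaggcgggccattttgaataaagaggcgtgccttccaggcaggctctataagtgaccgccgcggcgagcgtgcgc
ID4: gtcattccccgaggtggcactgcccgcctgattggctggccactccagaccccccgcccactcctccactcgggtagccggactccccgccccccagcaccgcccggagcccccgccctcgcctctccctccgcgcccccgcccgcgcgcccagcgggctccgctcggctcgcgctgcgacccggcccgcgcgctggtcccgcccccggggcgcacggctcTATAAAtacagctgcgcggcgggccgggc
ID2: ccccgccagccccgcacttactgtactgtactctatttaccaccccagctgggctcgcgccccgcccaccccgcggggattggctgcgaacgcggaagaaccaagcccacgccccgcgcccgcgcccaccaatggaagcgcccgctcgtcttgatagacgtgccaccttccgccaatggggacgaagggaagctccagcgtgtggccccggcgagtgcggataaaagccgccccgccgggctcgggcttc
SMAD6: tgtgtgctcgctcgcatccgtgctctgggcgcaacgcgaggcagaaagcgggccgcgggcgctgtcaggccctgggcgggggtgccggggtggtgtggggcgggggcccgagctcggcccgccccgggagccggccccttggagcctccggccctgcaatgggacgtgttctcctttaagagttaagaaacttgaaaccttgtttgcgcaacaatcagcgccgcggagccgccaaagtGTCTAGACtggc

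These windows were rich in G and C, with 66.0% in ID1, 62.0% in ID3, 78.8% in ID4, 69.2% in ID2 and 68.0% in SMAD6. TATAAA began 31 bases before the start site of ID1, where TTTATA, its reverse complement, overlaps it, and 29 bases before that of ID4. These exact letters were found in neither ID3, which rose, nor ID2, which fell. Near variants were not searched for, and close to the start site the ID3 window holds TATAAG and the ID2 window GATAAA. Among all 34943 promoter windows of this length, 10.8% held TATAAA or its reverse complement, and 11 of the 46 pathway genes with a window did. GTCTAGAC, its own reverse complement, began 12 bases before the start site of SMAD6 and was in 0.183% of all windows. CAGACA was found for 10 of the 46 genes, beside 13.6% of all windows, and GGCGCC for 17, beside 16.4%. No ID gene held either. A gene was counted if any of its windows matched, and the windows were not matched for G and C. The counts of genes therefore cannot show more or fewer motifs than in all windows. These are matches of letters and do not show binding.

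The 12 untested genes had few counts in every library, and 4 of them were called lower with BNC2 siRNA when genes with low counts were also tested. In that fit 26.7% of all 18121 genes tested were lower, so that 4 genes of 11 is not far from the share of all genes. CHRD, which encodes the BMP antagonist chordin, had 12, 10 and 11 counts with NC siRNA and 1, 0 and 0 with BNC2 siRNA, a ratio of 32.0 after library sizes (exact 95% counting interval 5.36 to 1301). BMP2 had 7, 11 and 16 counts against 0, 3 and 0 (ratio 10.99, 3.46 to 55.9), and BMP6 had 5, 6 and 5 against 1, 0 and 0 (ratio 15.5, 2.41 to 651). BMP7 had 0, 6 and 2 counts with NC siRNA and none with BNC2 siRNA. Its difference rests on NC siRNA replicate 2, without which 2 counts are left, under the limit of 3 counts, and no fold is given. Without the filter, these 4 genes had an adjusted p below the threshold (adjusted p = 1.09e-05 for CHRD, 0.000107 for BMP2, 0.00807 for BMP6 and 0.0318 for BMP7). The sense counts of BMP6 were a small part of the reads in that gene: 682, 785 and 697 reads with NC siRNA and 608, 616 and 497 with BNC2 siRNA lay on its other strand, 99.6% of the total of both strands.

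The remaining low genes were not called without the filter or could not be tested at all. ACVRL1, the type I receptor of endothelial cells, had 4, 1 and 1 counts with NC siRNA and none with BNC2 siRNA. Without NC siRNA replicate 1 it too had 2 counts left, and no fold is given. ENG, its endothelial co-receptor endoglin, had 4, 2 and 2 counts against 2, 1 and 3. Of the endothelial markers, VWF had 3, 6 and 4 counts with NC siRNA and none with BNC2 siRNA, PECAM1 had at most 7 in a library and CDH5 had none, and their part in the values of ACVRL1 and ENG was not tested. BMP8A had 7, 3 and 2 against 0, 0 and 3, which is uncertain because BMP8B is a near-identical neighbour and reads shared by both were not counted. GREM1, the BMP antagonist gremlin, had 1 count in 1 NC siRNA library and 1 count in each of 2 BNC2 siRNA libraries, GDF7 had 1 count in 1 NC siRNA library, and GDF10 had none in any library. A count of 0 allows up to 3 counts, which in these libraries equal 0.168 to 0.191 CPM.

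A list of 84 other genes of the pathway was examined beside these. In it 55 passed the filter and 50 were called, 20 higher and 30 lower, beside 72.9% of all genes called, 36.6% higher and 36.2% lower. GDF15, DCN, CHRDL2, RGMA and MSX2, with at most 1 knockdown library over 1 CPM, passed the filter by their control libraries and could be tested only as falls, and without these 5 genes 20 were higher and 25 lower of 50. Kept among the 50 and the 25 lower is ACVR1C, with 2 knockdown libraries over 1 CPM. Of those 50, 14 were called with at least 2-fold change, beside 18.1% of all genes. Genes that passed through 1 group alone were not left out of that share, and this list too was chosen with earlier results known. With an NC siRNA library left out, 20 were higher and 24 to 26 lower. The median log2FC was -0.27 over the 55 and -0.19 over the 50, beside 0.00 for all genes tested. The genes listed under latency and activation, some of which store TGF-beta in the matrix or release it, gave 6 higher and 4 lower of 10 tested. LTBP1 and LTBP2, both named as latent TGF-beta binding proteins, rose. LTBP1 went from 46.1 ± 3.01 to 159.6 ± 2.68 CPM (SD, n = 3, with a log2FC of 1.79 ± 0.06 SE and adjusted p = 5.18e-13). LTBP2 went from 33.1 ± 3.22 to 76.9 ± 3.39 CPM (log2FC 1.21 ± 0.08 SE, adjusted p = 4.47e-10). TLL1, a tolloid-like protease that cleaves chordin, rose from 3.25 ± 0.291 to 8.12 ± 0.490 CPM (log2FC 1.32 ± 0.15 SE, adjusted p = 5.1e-07). LRRC33 (now NRROS), which anchors latent TGF-beta at the cell surface, fell from 22.0 ± 1.36 to 2.76 ± 0.316 CPM (log2FC -3.00 ± 0.13 SE, adjusted p = 4.38e-12).

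Of the other secreted antagonists, 5 had a library over 1 CPM in both groups, of which 3 fell (HTRA1 with overlapping groups), none rose and 2 were not called, while DCN and CHRDL2 passed it through the control libraries alone. TWSG1, a BMP-binding protein that acts with chordin, fell from 59.0 ± 5.85 to 22.9 ± 1.02 CPM (log2FC -1.37 ± 0.08 SE, adjusted p = 3.43e-10). Of the 3 other ligands tested, GDF15, a distant member of the family that is induced by stress, stood at 107.8 ± 6.15 CPM with NC siRNA and at 0.979 ± 0.262 CPM with BNC2 siRNA (SD, n = 3). As it passed the filter by its control libraries, its p is not given. Of the other receptors and co-receptors, 2 had libraries over 1 CPM in both groups and both were lower. ACVR1C, also known as ALK7, was over it in 2 of the 3 knockdown libraries. It stood at 9.74, 7.45 and 7.59 CPM with NC siRNA and 0.756, 1.52 and 1.40 CPM with BNC2 siRNA (log2FC -2.75 ± 0.22 SE). As its knockdown libraries alone would not have met the filter, its p is not given. Among the 15 other intracellular regulators tested, 6 rose and 8 fell, and the counts of these small groups stand beside 36.6% of all genes higher and 36.2% lower. NEDD4L, a ubiquitin ligase related to the SMURFs, fell from 31.6 ± 2.21 to 13.7 ± 0.943 CPM (log2FC -1.20 ± 0.09 SE, adjusted p = 4.97e-09).

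Of 17 other targets tested, 8 were higher and 8 lower, MSX2 among the lower, beside 36.6% of all genes higher and 36.2% lower. The rises of at least 2-fold included TGFBI, an extracellular matrix protein named for its induction by TGF-beta, which went from 13.7, 15.2 and 14.6 CPM to 69.0, 61.9 and 60.04 CPM (log2FC 2.13 ± 0.08 SE, adjusted p = 1.43e-12). PMEPA1, a membrane protein induced by TGF-beta that restrains its signal, went from 20.5, 22.6 and 20.6 CPM to 85.7, 82.8 and 80.1 CPM (log2FC 1.96 ± 0.07 SE, adjusted p = 6.55e-13). Both were separated by far more than the spread inside the groups. The transcriptional repressor BHLHE40 rose with a log2FC of 1.43 (SE 0.07, adjusted p = 2.89e-11), the transcription factor SNAI2 with 1.15 (SE 0.06, adjusted p = 1e-10) and the cyclin-dependent kinase inhibitor CDKN2B with 1.06 (SE 0.07, adjusted p = 7.15e-10). In the opposite direction, MSX1, a homeobox gene induced by BMPs, fell from 13.5 ± 1.36 to 3.90 ± 0.263 CPM (SD, n = 3; log2FC -1.79 ± 0.13 SE, adjusted p = 4.01e-09). Typical targets thus moved apart: ID1, ID4, TGFBI and PMEPA1 were higher in the same libraries in which SMAD6, SMAD7, ID2 and MSX1 were lower.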

How the data were processed

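RNA-seq of 6 BT549 libraries was used, grouped by the sample labels. The methods state that poly(A) RNA was sequenced as single-end reads and aligned to hg19 (GRCh37) with the iGenomes UCSC annotation, and the submitters' processing notes name STAR 2.6.1d. The authors deposited counts of reads per gene without normalisation, as a table of the series and a table per library. In all 23346 genes the series table equals the library column for the reverse strand. Reads assigned to no gene (37.7% to 41.1% of a library) were left out.

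The low-count filter kept 12186 genes (over 1 CPM in 3 or more libraries). TMM scaling (factors 0.972 to 1.04) and edgeR's quasi-likelihood test with no replicate term were used (R 4.3.3, edgeR 4.0.16, limma 3.58.1), with Benjamini-Hochberg adjustment over all genes tested, and genes were called at an adjusted p of at most 0.05. The biological coefficient of variation was 6.16%. The script was tested on simulated data. Tried besides were the likelihood ratio test of edgeR, which the study used, DESeq2 1.42.0, its size factors, total counts only, no filter, filterByExpr, both strands counted, a replicate block and leaving out each library. Intervals of count ratios are exact 95% intervals and, like the limit of 3 counts, cover counting error only.

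The pathway genes, the list of other pathway genes and the tests were chosen with earlier results of these data known. Any of the 51 genes could be named, and of the other pathway genes those called with at least 2-fold change and 5 CPM or more on average in the group where they were higher (15 genes, 14 of which are given). The other is not reported here. Of the 84 other genes, 2 were matched by an older symbol through RefSeq. Gene positions and the canonical transcript lengths behind levels per kb are from GENCODE 44 on GRCh37. Reads that map to multiple places are not in the counts, which lowers genes with near-identical copies. The methods and the labels name different transfection reagents.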

Additional observations from a re-analysis of the deposited data

Results flagged for a closer look

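Reads on the strand opposite to ENG, which the comparisons did not use, numbered 4, 4 and 2 in the NC siRNA libraries and 5 in each of the 3 BNC2 siRNA libraries. The lowest BNC2 siRNA library, with 5 reads, was thus above the highest control library by a single read. The difference was not tested. Of the 51 genes, 12 had reads on the other strand that did not overlap between the groups, 10 of them lower with BNC2 siRNA and 2 higher, ENG and ID4. Among the genes with any read on the other strand, that is 22.7% of 44 pathway genes lower and 4.55% higher, beside 18.7% and 3.48% of all 15652 genes, so the shares are near those of all genes. ID4 had no such read with NC siRNA and 2, 2 and 1 with BNC2 siRNA, each under the limit of 3 counts. Wider gaps were in lower genes, such as INHBA with 142, 140 and 106 reads against 41, 50 and 28, and FSTL1 with 91, 76 and 72 against 15, 27 and 25. In FSTL1 they were 0.586% of the reads of both strands, and in INHBA 2.99%.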

How the results depend on the processing

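Among 14 alternatives, the number of the 51 genes called lay between 31 and 38 (34 as reported), and the number of all genes called between 8084 and 9662 (8879 as reported). For single genes, BNC2 included, 539 values kept their direction and their side of the threshold, 10 lost a call, 4 gained a call and 4 changed sign. The median log2 fold change of the pathway genes (-0.04 as reported) was -0.12 with total counts only, -0.36 without the filter on low counts, which adds genes with few counts, and -0.13 with both strands counted; with a library left out it ranged from -0.0654 to 0.0176. The median of all genes (0.00 as reported) was -0.07 with total counts only, -0.07 without the filter and 0.00 with both strands counted. SMAD9 was -0.32 with both strands counted. Without NC siRNA replicate 3, FSTL3 was -1.6e-05 and SMAD5 -0.00081, and without BNC2 siRNA replicate 3 SMAD5 was -0.0039; neither gene was called in these or as reported. With each library left out in turn, FSTL3 ranged from -1.6e-05 to 0.16 and SMAD5 from -0.0039 to 0.20. Calls were gained by GDF6 with the likelihood ratio test (adjusted p = 0.0429) and without NC siRNA replicate 2 (0.0265), by TGFBR3 with total counts only (0.0486) and by SMAD5 without NC siRNA replicate 1 (0.0245). GDF5 did not pass the filter when an NC siRNA library was left out.

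The labels number the replicates in both groups. Deviations of libraries with the same number correlated at -0.21, -0.08 and -0.13 across genes, so the numbers were not taken to pair the libraries. With the replicate block, 33 pathway genes and 8400 genes in all were called, and SMAD4 lost its call.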
